A study of Mus musculus with 6 samples.

Results

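miR-21a is a mouse miRNA whose hairpin gives a mature miRNA from each of its arms, mmu-miR-21a-5p and mmu-miR-21a-3p. Both were found in the liver libraries by their names, 2 entries out of 1039 mature miRNAs in the table, of which 762 have mouse names. The libraries were made from the liver of wild type ICR mice, an outbred stock, aged 30 weeks. All mice ate a high-fat diet from the start of the experiment, and after 12 weeks the J group (3 mice) was given JTXK granule, a Chinese herbal formula, by gavage for 8 weeks, while the M group (3 mice) received sterile water over the same 8 weeks. Both groups were therefore on the high-fat diet, no library of mice on a standard diet was analysed here, and the values do not set the fatty diabetic liver against a healthy one. Each library held 2626353 to 4314134 miRNA reads, and levels are given as RPM, the reads of a miRNA scaled to the same total of miRNA reads in every library (1 read was worth 0.232 to 0.381 RPM). In whole liver, fewer cells of a type and less miRNA per cell cannot be told apart.

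A miRNA hairpin is cut by Dicer into a short duplex, one strand of which is loaded into an Argonaute protein as the guide, while the other, the passenger strand, is mostly degraded. The guide finds its target mRNAs mainly through its seed, the bases near its 5′ end. Transcription of miR-21 is induced through AP-1 and STAT3, and in liver this miRNA is known from steatosis, activated stellate cells, fibrosis and regeneration. The guide strand of the hairpin is the 5p arm.

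The mature sequences of RefSeq (GRCm38.p6) are shown 5′ to 3′ because the arm ratio and the cross-reading of related entries rest on them, with the seed (bases 2 to 8) in capitals.
mmu-miR-21a-5p: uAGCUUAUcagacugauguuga
mmu-miR-21a-3p: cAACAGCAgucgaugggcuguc
mmu-miR-21b: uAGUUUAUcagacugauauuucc
mmu-miR-21c: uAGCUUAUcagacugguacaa
Both arms are 22 bases long. The 5p arm begins with U and holds 36.4% G and C, and the 3p arm begins with C and holds 59.1%. Their hairpin, Mir21a, has 92 bases and lies at chr11:86584067-86584158 on the minus strand (GRCm38). The 5p arm covers 86584120 to 86584141 and the 3p arm 86584082 to 86584103, with 16 bases between them. The whole hairpin sits inside exon 12, the last of the 12 exons of a transcript of Vmp1, within its 3′ UTR. Vmp1 is a gene for a membrane protein of autophagy that is transcribed from the same strand. Of the 1679 mature mouse miRNAs in the RefSeq table, only mmu-miR-21c has the same seed as mmu-miR-21a-5p, and none has that of mmu-miR-21a-3p.

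mmu-miR-21a-5p was one of the dominant miRNAs of these livers. Its share of a library was 18.1%, 11.6% and 15.9% for J group replicates 1, 2 and 3, and 14.2%, 10.8% and 14.1% for M group replicates 1, 2 and 3. The reads behind these shares numbered 368475 to 782802 per library. In RPM this was 181451, 115607 and 158980 in the J group, with a mean of 152012 ± 33470.4 (SD, n = 3). The M group libraries had 142135, 108028 and 140783 RPM, with a mean of 130315 ± 19314 (SD, n = 3). J group replicates 1 and 3 lay above every M library, J group replicate 2 lay below M group replicates 1 and 3, and the groups overlapped.

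mmu-miR-21a-3p was present in the same libraries at a far lower level. J group replicates 1, 2 and 3 held 343, 363 and 489 RPM of it, and M group replicates 1, 2 and 3 held 404, 276 and 348 RPM, from 941 to 1495 reads per library. The mean of the J group was 398 ± 79.0 RPM (SD, n = 3). That of the M group was 343 ± 64.4 RPM (SD, n = 3). The highest value was that of J group replicate 3 and the lowest that of M group replicate 2, and the groups overlapped here too.

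**Figure D1:**
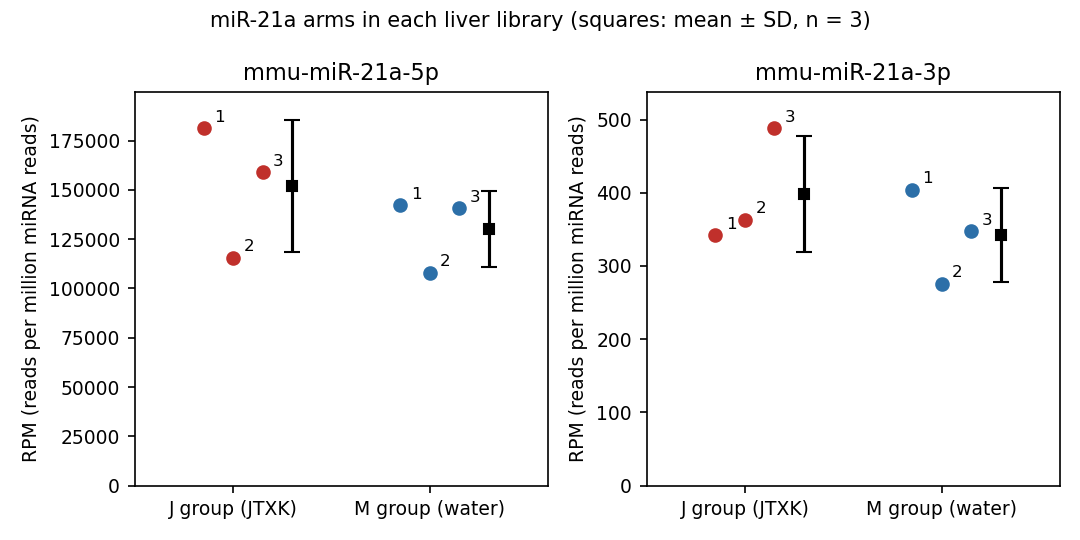
Level of each miR-21a arm in RPM on a linear axis, with each numbered point a library (1 mouse) and the square and bar the mean ± SD of its group (n = 3). The 5p arm lies between 108028 and 181451 RPM and the 3p arm between 276 and 489 RPM, and the J and M points overlap in both panels.

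To see whether JTXK granule was accompanied by a change of miR-21a, both groups were set against each other on the log2(RPM + 1) scale. The fit was made with limma, which shares information on the variance over miRNAs, here the 548 with a mean RPM above 1 in either group. A miRNA passed when its log2 fold change exceeded 0.3 in size at an unadjusted p under 0.05. Neither arm passed. The log2 fold change of mmu-miR-21a-5p was 0.21 (standard error 0.19, limma adjusted p = 0.73), with a 95% interval from -0.24 to 0.66, or 0.847-fold to 1.58-fold. For mmu-miR-21a-3p it was 0.22 (standard error 0.24, limma adjusted p = 0.79), with an interval from -0.35 to 0.78, or 0.786-fold to 1.72-fold. Both estimates pointed to a higher level in the J group, yet they were no larger than the spread between mice, and the intervals leave room for a rise of over 1.5-fold as well as for a fall. Of the 9 pairs of a J library and an M library, the J library was higher in 7 for the 5p arm and in 6 for the 3p arm. An exact two-sided permutation test over the libraries gave p = 0.4 for the 5p arm and p = 0.5 for the 3p arm, where 3 against 3 cannot go below 0.1.

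Among all miRNAs tested, 29 of 548 (5.29%) passed the thresholds, and the limma adjusted p was under 0.05 for 0 of them (smallest 0.42), with 29 at an unadjusted p under 0.05. edgeR on the recovered reads also had 0 and DESeq2 had 2 at an adjusted p under 0.05, neither of them an arm of miR-21a. The median log2 fold change of the 548 was -0.13, so that the 5p arm lay 0.34 and the 3p arm 0.35 above it. J group replicate 2 weighed most on the 5p arm: without that library its log2 fold change was 0.39 and passed the thresholds (unadjusted p = 0.0442, adjusted p = 0.83 from limma). Without J group replicate 1 it was 0.068 and without M group replicate 2 it was 0.079. For the 3p arm the lowest values were 0.059 without J group replicate 3 and 0.068 without M group replicate 2. Under quantile normalization the 5p arm turned to -0.16, and the 3p arm reached 0.55 and passed the thresholds (adjusted p = 0.75). M group replicate 1 stood apart from the other libraries, with a Pearson correlation of log2(RPM + 1) over the tested miRNAs of 0.931 to 0.941 with each of them, against 0.973 to 0.989 among the remaining 5. Its sample label also has a prefix unlike that of the other M libraries, and what the prefix marks is not given in the sources used here. Without M group replicate 1 the log2 fold change was 0.28 for the 5p arm and 0.34 for the 3p arm, and neither passed.

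**Figure D2:**
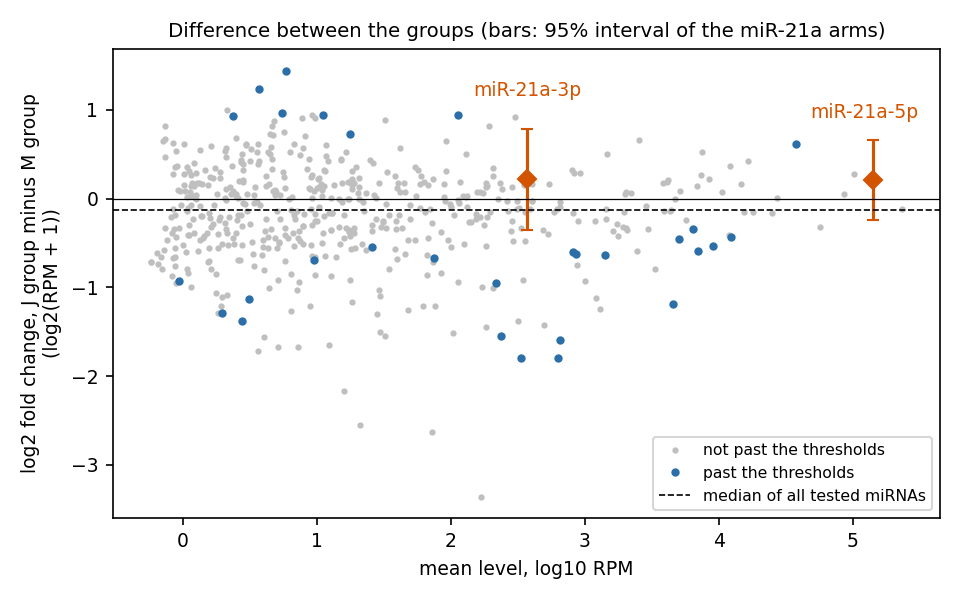
Log2 fold change (J group minus M group, log2(RPM + 1)) of the 548 tested miRNAs against their mean level (log10 RPM), with miRNAs past the thresholds in blue, the dashed line at the median of all tested miRNAs and diamonds with 95% intervals for the miR-21a arms. The diamonds lie at 0.21 (5p) and 0.22 (3p), and both intervals cross 0.

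The ratio of the arms within a library does not depend on the library total. There were 529.6, 318 and 325 reads of the 5p arm per read of the 3p arm in J group replicates 1, 2 and 3. In M group replicates 1, 2 and 3 there were 352, 392 and 405. The 3p arm thus made up 0.188% to 0.313% of the reads of the hairpin. The M libraries lay close to each other (383 ± 27.6, SD, n = 3), and the J group (391 ± 120.1, SD, n = 3) had 2 libraries below and 1 above all of them. The 95% Wilson interval of J group replicate 1 was 503 to 557, clear of the highest bound of the other libraries, 426, so its ratio differed from theirs by more than counting error. In that library the 5p arm was at its highest and the 3p arm at the second lowest of the 6 values.

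Arm ratios were fitted over 119 of the 130 hairpins with both arms tested, leaving out 11 in which a library had no reads of an arm. The difference between the groups in the log2 arm ratio of miR-21a was -0.0076 (standard error 0.23, adjusted p = 0.99 from limma on the ratios), with a 95% interval from -0.49 to 0.48. It did not pass the thresholds, which 7 of the 119 hairpins (5.88%) did. An exact permutation test over the libraries gave p = 1. Without J group replicate 1 the difference was -0.25 (adjusted p = 0.69), and with each of the other libraries left out in turn it lay between -0.067 and 0.12. The deviation of J group replicate 1 from the 6-library mean was 0.48 on the log2 scale for miR-21a, above that of 103 of the 119 hairpins, while the median deviation of all hairpins in this library was 0.0024.

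Set among the other hairpins, miR-21a was one of those with the most uneven arms. By geometric mean there were 381 reads of the 5p arm per read of the 3p arm, the eighth highest ratio of 5p to 3p among the 119. By the ratio of mean RPM, which takes in the 11 left out, it was the ninth of 130, since miR-10b stood above it at 606. By imbalance in either direction it ranked 13, and the median imbalance was 14.7-fold. In the order of 5p to 3p among the 119, miR-10a stood just above it with 883 (627 to 1109 over the 6 libraries), and above that miR-122 with 1070.4 (812 to 1444). Just below it came let-7i with 349 (299.9 to 509.6) and miR-125a with 242 (142 to 297). The values of miR-21a, 318 to 529.6, overlapped those of let-7i, and lay below those of miR-10a and miR-122 and above those of miR-125a in the range of the 6 libraries.

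**Figure D3:**
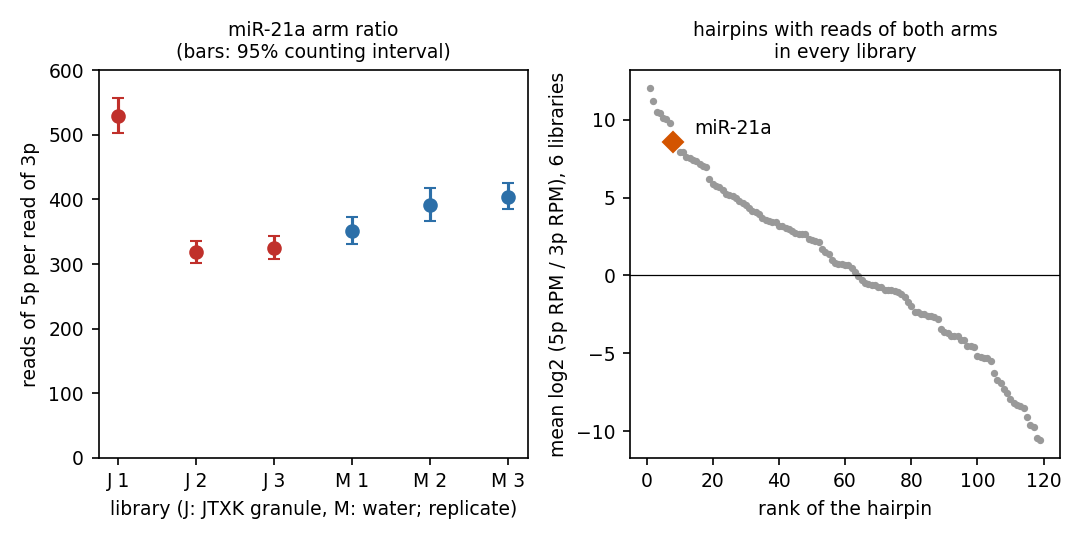
Left, reads of miR-21a-5p per read of miR-21a-3p in each library with its 95% Wilson interval for counting error (red, J group; blue, M group). Right, the mean log2 ratio of 5p to 3p RPM over the 6 libraries for the 119 hairpins with reads of both arms in every library, in falling order. J group replicate 1 stands at 529.6, the other libraries at 318 to 405, and miR-21a (diamond) is the eighth hairpin from the top at a log2 ratio of 8.57.

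In the order of mean RPM over the 6 libraries, mmu-miR-21a-5p (141164 ± 27176, SD, n = 6) followed mmu-miR-122-5p, the hepatocyte miRNA, with 233659 ± 17109. mmu-miR-192-5p came next with 102836 ± 14236, and then mmu-miR-99a-5p with 86008 ± 5672. mmu-miR-21a-5p was below mmu-miR-122-5p in all 6 libraries and above mmu-miR-99a-5p in all 6. It was above mmu-miR-192-5p in 5 of the 6, and J group replicate 2 had the opposite order. The difference from mmu-miR-192-5p, 0.45 ± 0.38 on the log2 scale (SD, n = 6), was not much larger than its spread. mmu-miR-21a-3p ranked 80 of 1039 by mean RPM, next to mmu-miR-30e-3p (386 ± 47.6) above it and mmu-miR-361-5p (358 ± 87.8) below it. From these it differed by less than the spread between libraries, by -0.072 ± 0.30 and 0.064 ± 0.57 on the log2 scale. The same held for mmu-miR-221-3p and mmu-miR-93-5p, which stood a rank further away on either side.

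The level of mmu-miR-21a-5p varied between libraries, and with 1 library per mouse the spread between mice and that of library preparation cannot be told apart. The coefficient of variation was 22.0% in the J group and 14.8% in the M group, against a counting error of 0.113% to 0.165% per library, and the highest library held 1.68 times the RPM of the lowest. Its SD between libraries of a group was 0.28 on the log2(RPM + 1) scale. Of the 6 miRNAs within 4-fold of its mean level, the other 5 had smaller values, from 0.0928 for mmu-miR-122-5p to 0.24 for mmu-miR-148a-3p. All 548 tested miRNAs had a median of 0.44, which includes the rare ones with few reads. For mmu-miR-21a-3p the coefficient of variation was 19.8% in the J group and 18.8% in the M group, against a counting error of 2.59% to 3.26%. Its SD was also 0.28, and 56 of the 92 miRNAs within 4-fold of its level had a larger one.

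**Figure D4:**
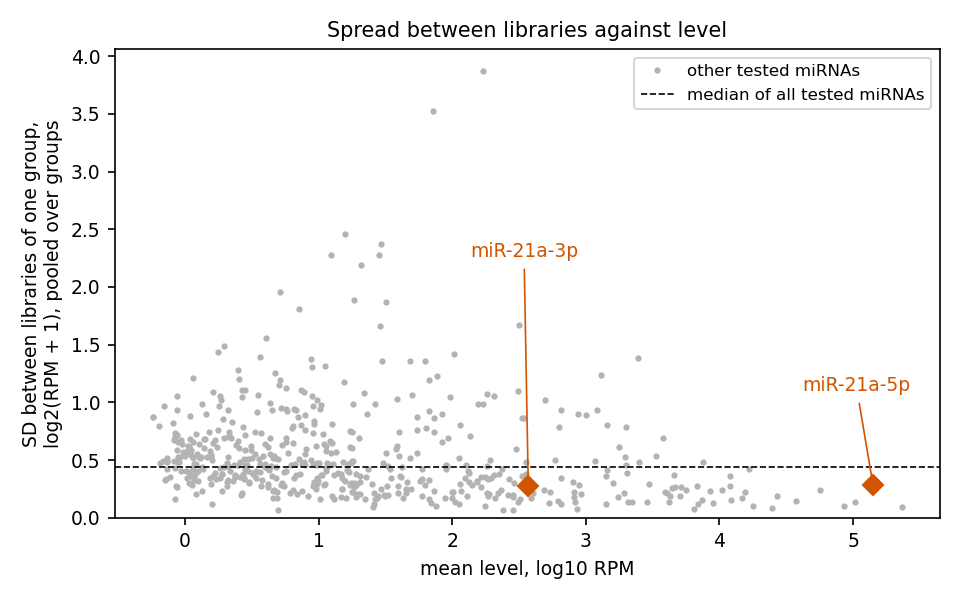
SD of log2(RPM + 1) between libraries of one group, pooled over both groups, against mean level (log10 RPM) for the 548 tested miRNAs, with the miR-21a arms as diamonds and the median of all as a dashed line. Both diamonds lie at 0.28, under the median of 0.44, and the 5p arm lies above the other miRNAs of its level.

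Because the 5p arm is so abundant, its share enters the RPM of all other miRNAs. Counting RPM without it raised the other values by a factor of 1.12 to 1.22, depending on the library, and the range of this factor was 0.12 on the log2 scale. Between the groups the shift was 0.037 on average. The median log2 fold change of all miRNAs went from -0.13 to -0.10 and the miRNAs past the thresholds from 8 higher and 21 lower to 12 higher and 16 lower. More passed higher than lower with median-of-ratios scaling (17 higher, 13 lower) and quantile normalization (20 higher, 11 lower), and fewer with edgeR on the recovered reads (18 higher, 27 lower). Neither arm passed with the share left out, with log2 fold changes of 0.25 for both.

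How far the arms moved together from mouse to mouse could not be settled with 6 libraries. Over these, Pearson's r of log2(RPM + 1) between mmu-miR-21a-5p and mmu-miR-21a-3p was 0.52 (exact permutation p = 0.292) and Spearman's rho was 0.37 (exact permutation p = 0.497), the only relation between libraries that was tested. Without J group replicate 1 and M group replicate 2, the libraries farthest from the median of the 5p arm, r was 0.71 and rho 0.80 over 4 libraries. Both arms are counted over the same library total, which they share.

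The miRNAs whose pattern over the 6 libraries was most like that of mmu-miR-21a-5p were ranked by Pearson's r among 301 miRNAs with a mean above 10 RPM in either group, as a description. The most alike was mmu-miR-34c-5p (r = 0.94), with 24.6, 8.65 and 23.2 RPM in J group replicates 1, 2 and 3 and 17.9, 10.8 and 17.0 RPM in M group replicates 1, 2 and 3. It was followed by the predicted miRNA m0326-5p (r = 0.89), mmu-miR-99b-5p (r = 0.81), mmu-miR-16-1-3p (r = 0.80) and mmu-miR-100-5p (r = 0.74). All but mmu-miR-100-5p had their lowest values in J group replicate 2 and M group replicate 2, as the 5p arm did. At the other end, mmu-miR-802-3p (r = -0.95, 10.9 to 28.4 RPM) and mmu-miR-328-3p (r = -0.90, 26.4 to 52.2 RPM) ran opposite to it, both with their lowest value in J group replicate 1. The pattern of mmu-miR-21a-3p was most like those of mmu-miR-872-5p (r = 0.92), mmu-miR-542-3p (r = 0.90), mmu-miR-30d-3p (r = 0.85), mmu-miR-122-3p (r = 0.76) and mmu-miR-376b-3p (r = 0.75), and most opposite to mmu-miR-503-3p (r = -0.91) and mmu-miR-28a-5p (r = -0.83). No miRNA was in the lists of both arms. The points share their library totals, and with 6 libraries and 301 candidates such a ranking has high values of r at its ends.

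The entries mmu-miR-21b and mmu-miR-21c, from genes on chromosomes 3 and 8, were rare, and their sequences bear on what was counted. The name of each entry in the table carries a range of bases and a length. The length equals that of RefSeq for 526 of the 530 entries that could be compared, and what the range marks is not given in the sources used here. For mmu-miR-21c it is bases 1 to 15, and its first 15 bases are those of mmu-miR-21a-5p, so reads of that stretch alone cannot be told apart. For mmu-miR-21b it is bases 1 to 17, which differ from mmu-miR-21a-5p by C4U alone (position 4 from the 5′ end, the base of mmu-miR-21a-5p first), a change inside the seed. mmu-miR-21b had 13 to 29 reads per library and mmu-miR-21c 8 to 17. Per 100000 reads of mmu-miR-21a-5p there were 2.81 to 5.16 of mmu-miR-21b and 1.93 to 3.53 of mmu-miR-21c. Their log2 fold changes were 0.30 (standard error 0.31, limma adjusted p = 0.78) and -0.076 (standard error 0.34, limma adjusted p = 0.95), and neither passed. Whatever these reads are, they are too few to move the level of mmu-miR-21a-5p, for which the name gives bases 1 to 19 of 22.

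Of 20 miRNAs known, like miR-21, from fibrosis and inflammation of the liver, 19 were analysed, and 0 rose and 4 fell in the J group, beside 1.46% and 3.83% of all miRNAs. The median log2 fold change of the 19 was -0.55, and 18 of the 19 were below 0, all but mmu-miR-29c-3p, beside 323 of all 548 at a median of -0.13. With median-of-ratios scaling, edgeR or DESeq2 15 were below 0, and with quantile normalization 13, where the 5p arm of miR-21a was below 0 as well. Those that fell were mmu-miR-146a-5p and mmu-miR-146b-5p, which NF-kB induces and which dampen its signaling, and mmu-miR-199a-5p and mmu-miR-214-3p, which stellate cells make. For mmu-miR-146a-5p the J livers held 241 ± 18.7 RPM and the M livers 1009 ± 721 RPM (SD, n = 3 each), a log2 fold change of -1.79. For mmu-miR-146b-5p the means were 121 ± 35.1 and 353 ± 91.0 RPM (-1.54), for mmu-miR-199a-5p 675 ± 43.8 and 1040.5 ± 42.8 RPM (-0.63), and for mmu-miR-214-3p 20.5 ± 1.12 and 30.6 ± 2.40 RPM (-0.55). Without M group replicate 1 the median was -0.21 and 3 of the 19 fell. mmu-miR-214-3p lay close to the threshold and did not pass in 15 of 17 alternatives, among them each of the 6 fits without a library. Under quantile normalization 2 fell, both miR-146 members. edgeR called both and mmu-miR-199a-5p lower, and DESeq2 called these 3 and mmu-miR-181a-5p lower. Of 15 miRNAs known from lipid and glucose metabolism of the liver, 0 passed in either direction with limma (median -0.25) and 0 with DESeq2. mmu-miR-192-5p passed as higher with edgeR, with median-of-ratios scaling, with RPM without mmu-miR-21a-5p and without M group replicate 2, mmu-miR-143-3p as lower with the replicate number as a term, and mmu-miR-148a-3p as lower without J group replicate 1. The lists were drawn up with results of these libraries known and are no independent evidence.

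Markers of liver cell types were summed in RPM to see what moved beside miR-21a. The 5 hepatocyte markers, led by mmu-miR-122-5p, gave 391597 to 419287 RPM in J livers and 392287 to 450543 RPM in M livers, and mmu-miR-122-5p was the most abundant miRNA by mean RPM, as liver tissue would give. The 7 leukocyte markers summed to 988 to 1369.97 in J livers and 1768 to 6579 in M livers, and these sums did not overlap. The largest part was mmu-miR-142a-5p (628 ± 121 and 1784 ± 1672 RPM, SD, n = 3 each). Taken singly, 2 of the 7 fell and did not overlap between the groups (mmu-miR-342-3p and mmu-miR-146a-5p). Of all tested miRNAs, 3.83% fell and 13.5% did not overlap. The groups overlapped for mmu-miR-142a-3p, mmu-miR-142a-5p, mmu-miR-223-3p, mmu-miR-150-5p and mmu-miR-155-5p. The median log2 fold change of the 7 was -1.12, and -0.50 without M group replicate 1, where the same 2 fell. The 4 stellate and stromal markers tested summed to 12582 to 16889.6 and 16765 to 25242, and 3 of them fell (mmu-miR-199a-5p, mmu-miR-214-3p and mmu-miR-145a-5p), beside the same 3.83%. The other marker on this list, mmu-miR-199a-3p, had no entry. Its relative mmu-miR-199b-3p, from the fibrosis list, did not pass (log2 fold change -0.16), and its groups overlapped. With edgeR, DESeq2, median-of-ratios scaling or RPM without mmu-miR-21a-5p 1 of the 4 fell (mmu-miR-199a-5p), and with quantile normalization 0. The same 1 fell without J group replicate 2 and without M group replicate 3. The endothelial marker mmu-miR-126a-3p had 4166 to 6718 and 4486 to 5579 RPM, the 2 red blood cell markers 4286 to 6232 and 2534 to 9724, and the 5 bile duct markers 950.1 to 2379 and 1203 to 4298, and none of these passed in the main fit. All 5 bile duct markers were below 0 (median -0.68, and -0.24 without M group replicate 1). Without M group replicate 3, mmu-miR-200b-3p and mmu-miR-429-3p passed as lower and mmu-miR-144-3p as higher. mmu-miR-200b-3p also passed as lower without J group replicate 3. No marker was at 0 in all libraries. The part of these cells in the level of miR-21a was not tested.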

How the data were processed

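Small RNA libraries of 6 mouse livers (separate mice, 3 per group, picked by the study and grouped by the labels) were sequenced. The authors filtered the reads, identified known and predicted miRNAs against Rfam and miRBase, and deposited RPM, relative to the miRNA total of each library. The submitters' processing notes name mm9, and the aligner and mismatch rules are not given in the sources used here. Positions and sequences are from RefSeq and GENCODE (GRCm38), and 653 of 762 mouse names matched RefSeq.

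Every RPM was a whole multiple of 1 read (100% of values within 0.01 read), so reads were recovered. A count of 0 allows up to 3 reads, 0.695 to 1.14 RPM. Wilson intervals (95%) cover counting error only.

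Levels were fitted with limma 3.58.1 in R 4.3.3 (trend, two-sided) on log2(RPM + 1), which understates changes of rare miRNAs, with Benjamini-Hochberg adjustment over every miRNA tested. Arm ratios were fitted by limma on log2(5p RPM / 3p RPM) over hairpins with reads of both arms in all libraries. Alternatives were an added 0.1 or 10 RPM, a filter at 10 RPM or none, RPM without mmu-miR-21a-5p or mmu-miR-122-5p, quantile normalization, median-of-ratios scaling, edgeR 4.0.16 and DESeq2 1.42.0 on recovered reads, a replicate number term, and each library left out; arm ratios also with 1 RPM added, an edgeR interaction and exact permutation.

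Named are both arms, miR-21c for its seed (miR-21b was added after its values were seen), the neighbours in level and arm ratio, the miRNAs most and least alike over the libraries, and list members that passed. Members and lists were chosen with earlier results of these data known.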

Additional observations from a re-analysis of the deposited data

How the results depend on the processing

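mmu-miR-21a-5p stayed above 0 under 16 of 17 alternatives and mmu-miR-21a-3p under all 17. Under quantile normalization the 5p arm was at -0.16, where each rank is given one fixed value and this miRNA ranked 2 in 5 libraries and 3 in J group replicate 2, and the 3p arm was at 0.55 and passed the thresholds. With each library left out in turn, the 5p arm ranged from 0.068 to 0.39 and the 3p arm from 0.059 to 0.34. The 5p arm passed without J group replicate 2, and the 3p arm passed in none of these 6 fits. The arm log2 ratio ranged from -0.25 to 0.12 with a library left out and was above 0 in 4 of the 6, and it passed under none of 11 alternatives. The adjusted p of the alternatives ran from 0.62 to 0.94 for the 5p arm, from 0.62 to 0.97 for the 3p arm and from 0.69 to 0.99 for the ratio. The 29 miRNAs past the thresholds became 45 with edgeR and 21 to 46 with a library left out, 46 without M group replicate 2. The median of all miRNAs, -0.13, was 0.08 with quantile normalization and -0.02 with edgeR.

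Over all tested miRNAs, libraries of the same replicate number did not deviate together (correlations of 0.045, 0.058 and -0.0059). With 3 libraries a group this cannot exclude a pairing, and the sample labels name none. For the 5p arm, replicate 1 was the highest and replicate 2 the lowest in both groups. A term for the replicate number lowered its standard error from 0.19 to 0.081. With the replicate block 27 miRNAs passed, and the values were 0.21 for the 5p arm (unadjusted p = 0.0481 from limma, under the fold threshold), 0.22 for the 3p arm and -0.0076 for the arm ratio, none of which passed. With 3 mice a group, the 95% intervals of -0.24 to 0.66 for the 5p arm and -0.35 to 0.78 for the 3p arm set the precision, far wider than the counting error.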
